A study of Mus musculus with 96 samples.

Results

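Collagen genes encode the main structural proteins of the extracellular matrix, and 10 of them were examined here in gonadal fat and liver of the mouse. They were listed by name: Col1a1 and Col1a2, the chains of fibril-forming type I collagen; Col3a1, of type III; Col5a1 and Col5a2, of type V; Col4a1 and Col4a2, of basement membrane type IV; Col6a1 and Col6a2, of type VI; and Col15a1. Every probe carrying one of these names was kept, which gave 16 of the 46116 probes on the array and 10 of its 17658 named genes. The mice were 48 animals of an F2 intercross between the lines M16i and MB2, 24 of each sex, all 15 weeks old, and each gave 1 array of gonadal fat and 1 of liver. The animals fell into haplotype classes numbered 1 to 4, with 12 mice per class and 6 of each sex within it. The labels do not state which parental segments a class carries or what diet the animals ate, and the series was collected to map expression QTLs, loci at which genotype goes with the level of a transcript.

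A collagen molecule is built of alpha chains wound into one helix, and chains of a type are made together in the same cell. Types I, III and V form the fibrils of connective tissue, with type V starting the fibril. Type IV builds the sheet-like basement membrane around adipocytes and under endothelium, type VI forms beaded filaments next to that membrane, and type XV sits where the membrane meets the fibrils. In fat, fibroblasts and preadipocytes are known as the main makers of fibrillar collagen, and every adipocyte is wrapped in a type IV and type VI coat. Newly made chains pass through hydroxylases and a dedicated chaperone in the endoplasmic reticulum, are trimmed outside the cell and are cross-linked by lysyl oxidases.

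The tissue labels fitted the markers. Of 9 adipocyte markers, 7 were detected on all 48 fat arrays and 6 on no liver array, and of 9 hepatocyte markers 7 were detected on all 48 liver arrays. Albumin (Alb) was detected on no fat array and on 18 liver arrays. Its mean log2 level in liver was 6.22, near background, against 14.53 for Apoa1, so the Alb probe is a weak marker here. The number of probes above background ran from 6582 to 10002 per fat array and from 5519 to 9060 per liver array. It was on average 8862.6 in female and 8934.1 in male fat, and 7837.1 in female and 7072.7 in male liver. Each tissue was scanned on 4 days, 12 arrays a day.

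Promoter sequence, from 250 bases before to 50 after the annotated start, was found in the RefSeq table (build GRCm38.p6) for 8 of the 10 genes, all but Col1a1 and Col5a2. The 4 stretches printed here were chosen because the results below turn on these genes. Col4a1 and Col4a2 lie head to head on chromosome 8, and their windows share 78 bases. The first stretch covers both starts (chr8:11312677-11312954, plus strand, the direction of Col4a2). The others end at the start of Col6a1 (chr10:76726045-76726294, minus strand), Col5a1 (chr2:27886175-27886424, plus strand) and Col3a1 (chr1:45311288-45311537, plus strand). Capitals mark matches to any of 3 motifs, each searched on both strands. The GC box is spelled GGGCGG. The CCAAT box is spelled as in its name. The TATA box is spelled TATAAA. No match overlaps another in these stretches.
Col4a1 and Col4a2: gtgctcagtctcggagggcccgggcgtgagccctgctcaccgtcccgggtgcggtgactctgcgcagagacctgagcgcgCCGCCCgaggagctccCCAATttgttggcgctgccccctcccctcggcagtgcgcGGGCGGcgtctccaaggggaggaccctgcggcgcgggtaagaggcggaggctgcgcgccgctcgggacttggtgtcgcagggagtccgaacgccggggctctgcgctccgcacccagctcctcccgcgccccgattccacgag
Col6a1: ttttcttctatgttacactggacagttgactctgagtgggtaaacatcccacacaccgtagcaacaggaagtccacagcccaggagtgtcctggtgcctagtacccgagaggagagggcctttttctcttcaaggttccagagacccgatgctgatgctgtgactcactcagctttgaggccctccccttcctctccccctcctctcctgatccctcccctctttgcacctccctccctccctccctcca
Col5a1: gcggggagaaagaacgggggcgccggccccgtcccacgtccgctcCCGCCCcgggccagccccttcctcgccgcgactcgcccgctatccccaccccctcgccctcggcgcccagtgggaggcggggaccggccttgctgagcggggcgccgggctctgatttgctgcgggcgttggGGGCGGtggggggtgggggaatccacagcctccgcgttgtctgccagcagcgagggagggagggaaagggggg
Col3a1: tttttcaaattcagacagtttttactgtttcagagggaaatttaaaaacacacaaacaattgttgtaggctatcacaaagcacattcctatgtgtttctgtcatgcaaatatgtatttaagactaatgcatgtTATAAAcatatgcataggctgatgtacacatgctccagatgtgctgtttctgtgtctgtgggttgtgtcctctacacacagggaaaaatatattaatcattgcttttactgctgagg
Of all 32851 windows of 300 bases in the table, 35.7% held a GC box, 37.4% a CCAAT box and 13.6% a TATA box. The whole windows of Col4a1, Col4a2, Col5a1 and Col1a2 held GC boxes, as did both windows of Col6a2, and those of Col4a1, Col4a2 and Col1a2 held CCAAT boxes. Col3a1 was the one gene of the 8 with a TATA box. Its window was 37.7% G and C, against 74% for Col4a1, 73.7% for Col4a2, 75% for Col5a1 and a median of 52.7% over all windows. The windows of Col6a1 (57.3%) and Col15a1 (52.3%) held none of these letters. A match of letters is a description and does not show that a factor binds there.

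In all, 8 of the 10 genes could be followed in fat. Col1a1, Col3a1, Col5a1, Col4a1, Col4a2, Col6a1, Col6a2 and Col15a1 each had a probe above background (detection p under 0.01) on all 48 fat arrays. The Col1a2 probe was above background on 3 fat arrays and on no liver array. Of the 3 Col5a2 probes, 1 was above background on 2 fat arrays and the others on none, so neither gene was tested. A second Col3a1 probe and a further Col6a1 probe were above background on no array of either tissue, although other probes of both genes were detected on all 48 fat arrays. A silent probe therefore does not show that a transcript was absent, and this holds for Col1a2 and Col5a2 too. A probe had to reach this level on at least 12 arrays to be tested, and 10 probes of 8 genes did so in fat and 4 probes of 4 genes in liver. The 10 fat probes include a second probe each for Col6a1 and Col6a2. The second Col6a2 probe, detected on 44 fat arrays, stayed near background.

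The first comparison was between the tissues. On a log2 scale shared by both, 9 of the 10 tested probes were higher in fat, and none was lower. Across the array 47.9% of the 11718 tested probes were higher in fat and 38.8% were lower. Of the 10 probes, 4 were detected on at least 12 liver arrays. The others entered the test through their detection in fat alone, so that the filter largely set their direction in advance. Their count is therefore no separate finding beside these shares. Because the samples are bulk tissue, fewer cells of a type and less RNA per cell cannot be told apart here or in what follows.

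Col4a2, a basement membrane gene, was the one of the 10 genes above background on every liver array. Its log2 level ran from 11.42 to 13.49 in fat (median 12.76) and from 7.81 to 9.54 in liver (median 8.70). The lowest fat array lay above the highest liver array, and the means differed 16.4-fold (4.04 on the log2 scale, SE 0.08, adjusted p = 2.18e-66 in limma). Col4a1, whose product pairs with that of Col4a2, ran from 9.92 to 12.14 in fat (median 11.14) and from 6.21 to 7.24 in liver (median 6.60), where 41 of 48 arrays detected it. Again the tissues did not overlap, and the means differed 22.0-fold (log2 4.46, SE 0.09). Col15a1, detected on 1 liver array, ran from 6.91 to 9.64 in fat (median 8.89) and stayed between 5.92 and 6.35 in liver (difference 2.73, SE 0.08).

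The type VI gene Col6a1 ran from 10.02 to 12.41 in fat (median 11.58) and from 5.98 to 6.54 in liver (median 6.17), where 9 arrays detected it (difference 5.28, SE 0.07). Its second probe was above background on no liver array, and fat was at least 23.7-fold higher there. For such a probe the liver level of an array was set to the lowest signal among its detected probes, or the probe's own where that was higher. The partner chain Col6a2 ran from 6.39 to 8.94 in fat and from 5.92 to 6.41 in liver, with 2 liver arrays detecting it (difference 1.24, SE 0.08). Its ranges touched, although fat was the higher tissue in 48 of 48 mice. The second Col6a2 probe was at 6.33 in both tissues (adjusted p = 0.998). The count of probes differing between tissues was 10 in place of 9 with the authors' deposited log2 matrix, with the number of detected probes as a term and without day 3, and 13 with no detection filter.

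Among the fibril genes, Col1a1 was above background on no liver array. It ran from 6.35 to 10.54 in fat (median 8.03), and fat was at least 3.32-fold higher (fitted log2 difference 2.06, SE 0.11). Col3a1 ran from 6.41 to 9.63 in fat (median 8.06) and from 5.88 to 7.15 in liver (median 6.01), where 8 arrays detected it. These ranges overlapped, but fat was higher in all 48 mice (difference 1.95, SE 0.10). Col5a1, which starts fibrils, ran from 8.97 to 11.03 in fat and from 6.04 to 6.50 in liver, where 14 arrays detected it (difference 3.75, SE 0.07). The call of each of the 8 genes was kept in all 16 alternatives. The levels in liver were too near background to order one gene's change against another's, and a signal near background understates a difference. Collagen genes outside the 10 did not all go the same way. Col18a1 was lower in fat than in liver (-1.90, adjusted p = 1.55e-58 in limma), as was Col11a2 by little (-0.06). Col16a1 (1.77), Col4a6 (0.50), Col4a5 (0.49) and Col14a1 (0.16) were higher in fat.

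**Figure D1:**
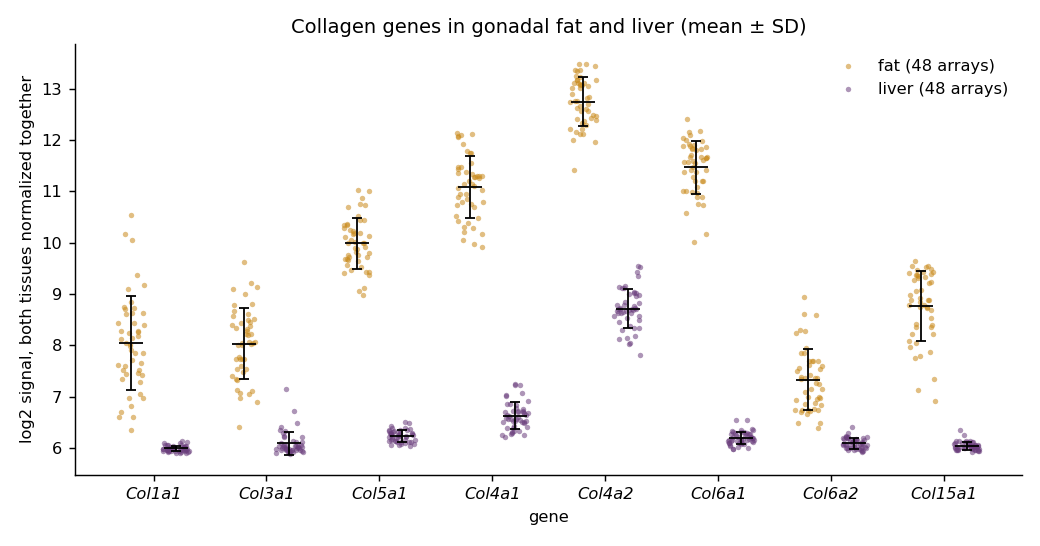
Log2 signal (vertical axis, both tissues normalized together) of the 8 collagen genes detected on all fat arrays, with 1 point per array and the mean ± SD for 48 fat and 48 liver arrays. Fat lies above liver for each gene, and the ranges of the tissues meet for Col3a1 and Col6a2 alone.

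The second comparison was between the sexes in fat, and 9 of the 10 probes, of all 8 genes, were higher in females. Over all 10217 tested fat probes, 12.1% were higher in females and 10.5% were higher in males. The median female minus male difference of the 8 genes was 0.57 on the log2 scale, beside 0.0038 over all tested genes. Levels here come from fat arrays normalized among themselves, and differences and SDs are from a model with class and scanning day.

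Col1a1, the type I chain, differed most. Female arrays ran from 7.75 to 10.44 (median 8.77) and male arrays from 6.38 to 8.61 (median 7.67). The ranges overlapped, with the upper female arrays above every male array. The adjusted means were 8.76 (SD 0.56, n = 24) and 7.66 (SD 0.55, n = 24), a difference of 1.10 (SE 0.18, adjusted p = 6.9e-06 in limma). Females were higher on 4 of 4 scanning days, by 0.75 to 1.40. In each haplotype class the 6 females also averaged above the 6 males, by 0.98 in class 2 to 1.64 in class 1. On any 1 fat scanning day each class was represented by 1 sex. A difference within a day is therefore also one between classes, and a difference within a class is also one between days, and these cannot be told apart in such values, here or for the genes that follow.

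Both type VI genes examined here were higher in females. Col6a1 ran from 10.74 to 12.18 in females (median 11.63) and from 9.97 to 11.66 in males (median 11.02). Its ranges overlapped in their middle, and the difference was 0.66 (SE 0.10, adjusted p = 3.48e-06). The second Col6a1 probe gave 0.64 (SE 0.11), so that both probes of the gene moved together. Col6a2 ran from 6.88 to 9.05 in females (median 7.88) and from 6.43 to 8.17 in males (median 7.13), a difference of 0.68 (SE 0.14, adjusted p = 0.000212). Its second probe did not pass (0.07, adjusted p = 0.0935).

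Of the basement membrane genes, Col15a1 showed the wider separation. It ran from 7.98 to 9.64 in females (median 9.37) and from 7.09 to 9.45 in males (median 8.56), and differed by 0.63 (SE 0.13, adjusted p = 0.000466). Female arrays clustered near the top of the common range and male arrays were more spread. Col4a1 ran from 10.21 to 11.92 in females (median 11.18) and from 9.89 to 11.85 in males (median 10.64), a difference of 0.47 (SE 0.13, adjusted p = 0.00716). Col4a2 ran from 11.90 to 13.19 in females (median 12.83) and from 11.23 to 12.97 in males (median 12.34), a difference of 0.35 (SE 0.10, adjusted p = 0.012). The sexes overlapped over most of the range of both type IV genes. Their calls were lost when scanning day 3, 4 or 8 was left out, with adjusted p between 0.0513 and 0.0908, while the differences stayed between 0.33 and 0.47. The count of 9 probes fell to 6 without day 4 or day 8. Females averaged higher on 4 of 4 days for both, but in class 1 Col4a2 averaged 12.39 in females and 12.48 in males.

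Col5a1 was higher in females by 0.49 (SE 0.11, adjusted p = 0.000941). Its female arrays ran from 9.07 to 10.87 (median 10.24) and its male arrays from 9.14 to 10.17 (median 9.72), so that the lowest array was a female one. Col3a1 had the call that moved most with the scanning day. It ran from 7.05 to 9.63 in females (median 8.33) and from 6.46 to 9.26 in males (median 8.27), and these unadjusted medians lay close together. With scanning day in the model females were higher by 0.52 (SE 0.15, adjusted p = 0.0105), and without that term by 0.23 (adjusted p = 0.356). The class means differed by -0.34 in class 1, -0.21 in class 2, 0.78 in class 3 and 0.70 in class 4, so males averaged higher in 2 of the 4 classes. The call was also lost without day 4, 7 or 8 (adjusted p from 0.0742 to 0.121), and the difference on day 3 was 0.0097 against 0.56 to 0.85 on the other days.

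**Figure D2:**
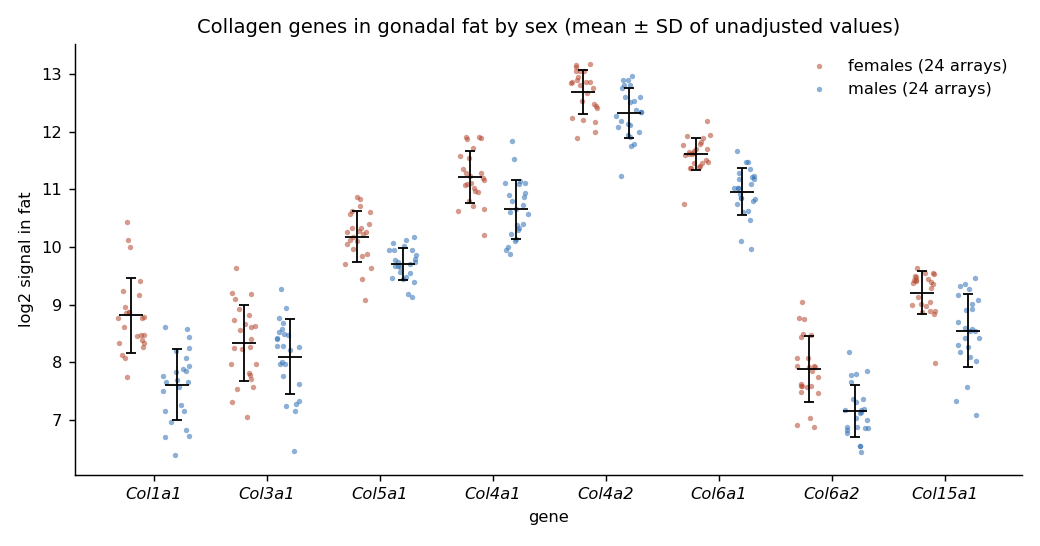
Log2 signal in gonadal fat (vertical axis) of 8 collagen genes, 1 point per array, with the mean ± SD of the unadjusted values of 24 females and 24 males. Females lie higher for Col1a1 (medians 8.77 and 7.67) and both type VI genes, and Col3a1 has nearly level medians (8.33 and 8.27).

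Genes that make, partner and remodel collagen were set beside the 8. Of 12 tested folding and modifying enzymes, 7 were higher in females and 1 was lower. Serpinh1, the collagen chaperone, was higher by 0.60 (SE 0.09, adjusted p = 3.52e-06), the lysyl hydroxylase gene Plod1 by 0.41, Crtap of the prolyl 3-hydroxylase complex by 0.39 and the prolyl 4-hydroxylase chain P4ha1 by 0.42. The exception was Ctage5, which acts in the export of large cargo from the endoplasmic reticulum and is named after its value was seen (-0.17, adjusted p = 0.00913). All 6 tested genes of procollagen processing and cross-linking were higher in females, among them the lysyl oxidase genes Lox (0.78, SE 0.13, adjusted p = 2.17e-05), Loxl1 (0.45) and Loxl2 (0.35), and Pcolce2, an enhancer of procollagen trimming (0.90).

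Of 14 fibril and basement membrane partners, 8 were higher in females and none was lower. They included Thbs2 (1.42) and Lum (1.33), whose products bind fibrils, Tnxb (0.50) and the basement membrane proteoglycan gene Hspg2 (0.43). Of 13 genes of collagen breakdown, 6 were higher and 1 was lower. The collagenolytic proteases Mmp14 (0.94) and Mmp2 (0.65) and the fibroblast protease Fap (0.32) were among those higher, and the protease inhibitor Timp4 was lower (-1.02). The 5 tested collagen receptors were divided. The anthrax toxin receptor Antxr1 (1.08) and the integrin chains Itga11 (0.56) and Itgb1 (0.24) were higher in females, and Ddr1 (-0.47) and Antxr2 (-0.37, named after its value was seen) were lower. Of 15 genes of TGF-beta and PDGF signalling, 3 were higher and 3 were lower, with Tgfbr2 at 0.69 and the latent TGF-beta binding protein Ltbp2 at -1.32. Of the 30 other collagen genes on the array 5 were tested, and Col16a1 (0.74) and Col14a1 (0.25) were higher in females. Col18a1 (-0.08), Col4a5 (-0.18) and Col4a6 (0.03) did not pass.

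Cell type markers were also compared between the sexes in fat. Of 10 fibroblast and preadipocyte markers, 9 were higher in females and none was lower, with Thy1 at 1.15 and Dpt at 0.57. Gsn, named after its value was seen, did not pass (-0.29, adjusted p = 0.0922 in limma). Their mean log2 level per array ran from 8.57 to 9.43 in females (median 8.99) and from 8.14 to 8.92 in males (median 8.50), and none of the 10 was undetected in fat. Dcn and Lum, on this list, are also on that of matrix partners, and Pdgfra on that of signalling. Of 9 endothelial markers 4 were higher in females (range of levels 7.71 to 8.39 in females and 7.59 to 8.26 in males), while Kdr was detected on no fat array. The 9, here and in the correlations below, include Fabp4 (-0.01, adjusted p = 0.916 in limma), which is not particular to endothelium in fat. Of 9 adipocyte markers 1 was lower in females and none was higher (9.24 to 10.29 in females and 9.35 to 10.51 in males). Mesothelial markers had 1 higher and 2 lower of 5, and of 8 ovary, oviduct and uterus markers 7 were detected on no fat array. The 7 epididymis and testis markers were each detected on some fat arrays, though on too few to be tested. At least 1 of them was detected on 12 of 24 male and 2 of 24 female fat arrays, with the protamine gene Prm1 on 9 male arrays and 1 female array. None was detected on a liver array. Both tested genes of the hepatocyte list were lower in females, Hp by -1.20 (adjusted p = 7.01e-08) and Serpina1a by -0.30 (levels 8.09 to 9.82 in females and 8.92 to 10.67 in males). Hp was detected on all 48 fat arrays, at a mean log2 level of 12.66 against 14.05 in liver. It therefore does not set hepatocytes apart here. Of 5 blood cell markers 1 was lower in females, Hba-a1 by -0.35 (7.50 to 8.85 in females and 7.68 to 9.24 in males). Of 5 mural and stellate cell markers 1 was higher, Rgs5 by 0.38 (7.22 to 9.42 in females and 7.05 to 8.57 in males), and none of 3 macrophage markers passed. The part of these markers in the sex difference of the collagens was not tested.

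In liver, the sexes differed the other way for Col4a2. Its level ran from 7.54 to 8.64 in females (median 8.37) and from 8.26 to 9.53 in males (median 8.89), with adjusted means of 8.28 (SD 0.29, n = 24) and 8.85 (SD 0.24, n = 24). The ranges overlapped between 8.26 and 8.64. Females were lower on 4 of 4 days, where again each class was represented by 1 sex a day, and lower in the model by 0.57 (difference -0.57, SE 0.09, adjusted p = 1.21e-06), and the call was kept in all 11 alternatives. Of the 4 liver probes, 1 was higher in females and 2 were higher in males, where 16.7% and 17.4% of the 8504 tested liver probes were. The other 2 were Col5a1 (0.06 higher in females, adjusted p = 0.0357) and the second Col6a2 probe (-0.05, adjusted p = 0.0335), both near background and both lost in 7 alternatives. Col4a1 gave -0.08 (SE 0.05, adjusted p = 0.299). Liver arrays of females had more detected probes than those of males, as given above, and with that number as a term the Col4a2 difference was -0.58. Of 6 endothelial markers tested in liver, 3 were higher in females and none was lower. The part of these in the Col4a2 difference was not tested.

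The difference between the sexes was itself compared between the tissues. All 10 probes passed this test, where 27.7% of the 11718 probes did. For Col4a2, detected on every array of both tissues, the sex difference in fat exceeded that in liver by 0.86 (SE 0.14, adjusted p = 3.43e-07), being positive in fat and negative in liver. For Col4a1 it was 0.62 (SE 0.16, adjusted p = 0.00246). The other probes were detected on 0 to 27 liver arrays, so that their liver difference was measured near background. Col3a1 lost this call in 8 of 15 alternatives, with adjusted p up to 0.107.

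The haplotype classes were the contrast the study was built on, and no collagen probe passed it. In fat 0 of 10 probes differed between the 4 classes in limma's moderated F-test, against 0.401% of all probes, and in liver 0 of 4, against 0.317%. Of the 10 fat probes, 4 had an unadjusted p under 0.05, as did 1323 of all 10217. Col15a1 came nearest. Its fat level had a median of 8.88 in class 1 (8.27 to 9.50), 8.47 in class 2 (7.09 to 9.55), 9.26 in class 3 (8.02 to 9.55) and 9.29 in class 4 (8.10 to 9.64). All 4 classes overlapped, and class 2 reached lowest. The adjusted means were 8.84 (SD 0.22), 8.44 (SD 0.58), 9.08 (SD 0.40) and 9.16 (SD 0.43), n = 12 each, a range of 0.72 (adjusted p = 0.0792). It passed with the number of detected probes as a further term (adjusted p = 0.0396) and without scanning day 3 (range 0.96, adjusted p = 0.0355). In the comparison of class 4 with class 2 alone, 1 of 6 such pairwise comparisons, each adjusted by itself, the difference of 0.72 (SE 0.18) passed (adjusted p = 0.0247), as 1.12% of probes did in that direction. The other 9 probes did not pass this pairwise comparison.

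In class 2 the male arrays of Col15a1 averaged 7.85 (SD 0.60, n = 6) and the female arrays 9.02 (SD 0.57, n = 6). Males of the other classes averaged 8.55 to 8.97. The class 2 males were scanned on days 7 and 8 and the class 2 females on days 3 and 4, so sex and day cannot be told apart in these means. This did not amount to a detected interaction of sex and class, which 0 of 10 collagen probes in fat and 0 of 4 in liver showed, as 0% of all probes did in either tissue (685 fat and 573 liver probes had an unadjusted p under 0.05). Col15a1 had an adjusted p of 0.86 in this test in fat.

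The other 7 genes had class ranges in fat of 0.32 (Col5a1) to 0.51 (Col6a2), with adjusted p from 0.249 for Col4a2 to 0.599 for Col1a1. For all 8 genes the lowest adjusted mean was that of class 2, and class 2 was lowest for 40.3% of all tested genes. Col4a2 had adjusted means of 12.44 in class 1, 12.27 in class 2, 12.71 in class 3 and 12.63 in class 4 (SD 0.25 to 0.42, n = 12). Col1a1 had means of 8.16, 7.96, 8.46 and 8.27 in the same order (SD 0.50 to 0.61). The genes covaried over arrays, so that their shared order is not 8 separate observations. Of the related lists, 1 gene differed by class in fat, the protease inhibitor Timp4 (range 0.93, adjusted p = 0.0412). The tissue by class interaction was passed by 0 of 10 collagen probes, against 0.179% of all probes, with Col15a1 the nearest (adjusted p = 0.147).

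Col5a1 is the one member on chromosome 2. In the gene order of GRCm38.p6 it is number 80 of 530 genes of that chromosome tested in fat and number 67 of 442 tested in liver. Its class ranges were 0.32 in fat (adjusted p = 0.565) and 0.06 in liver (adjusted p = 0.999).

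**Figure D3:**
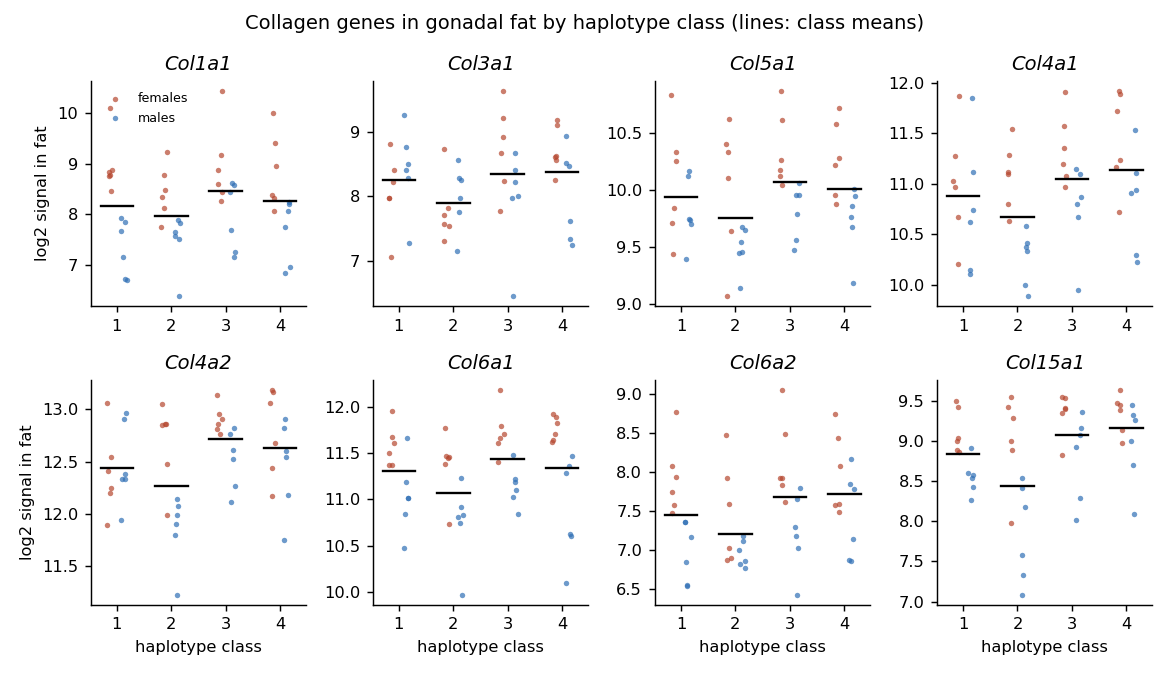
Log2 signal in fat (vertical axes, one scale per gene) of 8 collagen genes by haplotype class 1 to 4, with 6 female and 6 male arrays per class as points and the class mean as a line. Class 2 has the lowest line for each gene and all classes overlap.

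The last question was how far the genes varied together from mouse to mouse in fat. Class, sex and scanning day were removed from the values, and each of the 28 pairs of the 8 genes was correlated over the 48 arrays. All 28 r were positive, with a median of 0.473 (0.405 within females and 0.589 within males). Over all 52188436 pairs of tested fat probes the median was -0.0022. An r over 0.5 was found for 12 of the 28 pairs, 42.9%, and for 1.33% of all pairs. In two-sided permutation tests adjusted over the 28 pairs, 19 pairs passed for Pearson's r and 19 for Spearman's rho. The permutations made no allowance for the terms removed beforehand, in fat or in liver, so their p-values are somewhat too small. Calls close to the threshold, such as Col1a1 with Col15a1 (adjusted permutation p = 0.0464 for r), are therefore uncertain.

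Col4a1 and Col4a2, the head-to-head pair whose starts are printed above, had the highest correlation over all 48 arrays. Their r was 0.862 and rho 0.880 (adjusted permutation p = 2.8e-05 and 3.5e-05, each from 1e-05, the smallest that the permutations can give). It was 0.850 without the 2 arrays farthest from the Col4a1 median, and between 0.783 and 0.971 within the 4 scanning days. It was 0.853 in females, where Col1a1 with Col6a2 was higher (0.861), and 0.874 in males, where Col5a1 with Col4a2 was higher (0.903). Here and below, the 2 farthest arrays were picked by 1 gene of each pair. That was the gene earlier in the order Col1a1, Col3a1, Col5a1, Col4a1, Col4a2, Col6a1, Col6a2, Col15a1. Arrays extreme in the other gene alone stayed in.

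Other high values were found among types I, V and VI. Col6a2 had an r of 0.775 with Col1a1 (rho 0.760) and of 0.775 with Col5a1 (rho 0.748), and Col6a1 had an r of 0.765 with Col1a1 (rho 0.741) and of 0.733 with Col6a2 (rho 0.776), all at an adjusted permutation p of 2.8e-05 for r. Without the 2 farthest arrays these 4 values lay between 0.720 and 0.762, and each was positive on 4 of 4 days. These types formed no separate block, since pairs across types were about as high as Col5a1 with Col6a1 (0.622). Col4a1 with Col6a1 had an r of 0.633, Col5a1 with Col15a1 of 0.599 and Col5a1 with Col4a2 of 0.598. Col6a1 and Col6a2 lie on the same chromosome, 10, while Col1a1 and Col5a1 lie on chromosomes 11 and 2.

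Col15a1 varied most closely with Col4a2 (r = 0.685, rho 0.604, adjusted permutation p = 2.8e-05) and less with Col1a1 (r = 0.311, rho 0.349, adjusted permutation p = 0.0464). Without the 2 farthest arrays these were 0.608 and 0.372. The type IV genes and Col1a1 had an r of 0.284 (Col4a1) and 0.285 (Col4a2), which did not pass (adjusted permutation p = 0.0684 for both) and were positive on 3 of 4 days. Within females these were -0.0054 and 0.076 and within males 0.520 and 0.484, a difference that was not tested. Col5a1 had the highest mean r with the other 7 genes, 0.562.

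Col3a1 stood apart. Its 7 correlations lay between 0.0095 and 0.241, and none passed (adjusted permutation p from 0.125 to 0.949 for r). With Col1a1, which shares its fibrils in textbook accounts, r was 0.178 and rho 0.216. Without the 2 arrays farthest from the median of Col1a1, r was 0.030. The arrays farthest in Col3a1 stayed in, so this value does not show how far they shaped r. Within days the 7 values ranged from -0.782 to 0.674, so that they did not keep a direction. Col3a1 rested on 1 probe, since its second probe was not above background. Without Col3a1 the median r of the remaining pairs was 0.598. Whether Col3a1 differs from the others beyond the probe used was not tested.

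**Figure D4:**
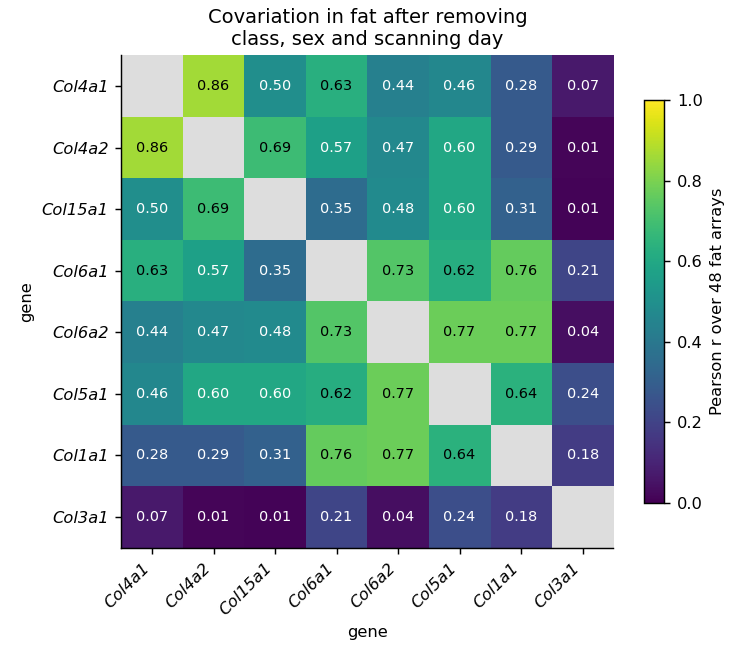
Pearson r (colour and printed value) for each pair of 8 collagen genes over 48 fat arrays, after class, sex and scanning day were removed. Col4a1 with Col4a2 is the brightest square (0.86), pairs among types I, V and VI and Col4a2 with Col15a1 (0.69) are also high, and the Col3a1 row and column stay at or under 0.24.

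**Figure D5:**
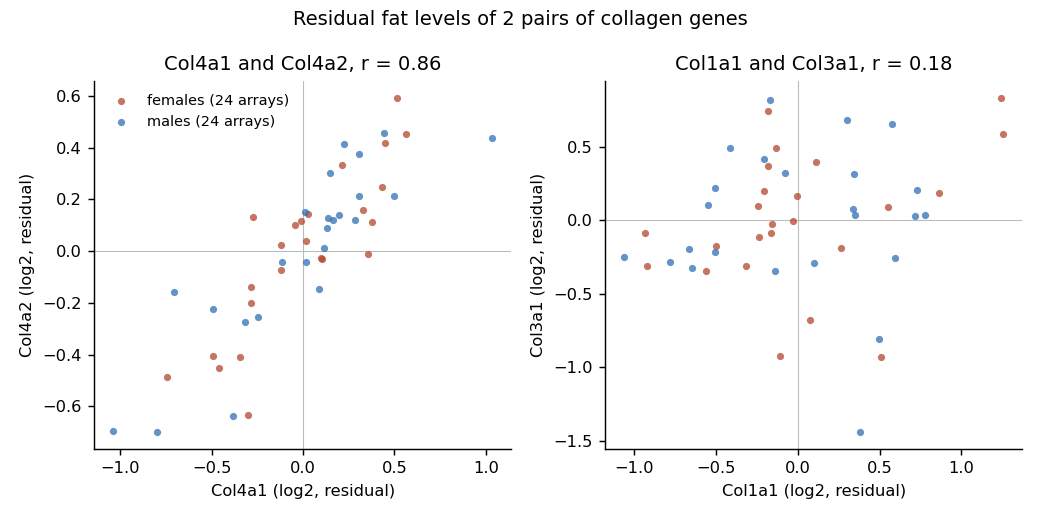
Residual log2 fat levels of 24 female and 24 male arrays, with Col4a2 against Col4a1 on the left and Col3a1 against Col1a1 on the right. The left points follow a line (r = 0.86), and the right points form a cloud (r = 0.18) with a few arrays low in Col3a1 only.

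Probes of one gene gave a check of what a single probe can show. The 2 Col6a1 probes had an r of 0.923 with each other, above any pair of genes. The 2 Col6a2 probes had an r of 0.059, the second being near background.

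Outside the family, the 12 named genes with the highest mean r with the 8 collagens were Anxa2, Cavin3, Lgals1, Calu, Anxa6, Serpinf1, Itgb1, Fstl1, Gpx7, Lmna, Hspg2 and Serpina1b, with mean r from 0.587 for Anxa2 to 0.493 for Serpina1b over 48 arrays. Itgb1 encodes the common chain of the collagen-binding integrins and Hspg2 perlecan, a partner of type IV collagen. By sex, 6 of the 12 were higher in females, 2 were lower (Lmna and Serpina1b) and 4 did not pass. By class in fat, Lgals1 (adjusted p = 0.00253) and Anxa6 (adjusted p = 0.0112) passed. Fstl1 was higher in females (0.67, adjusted p = 0.000111), Anxa2 (-0.06, adjusted p = 0.616) and Lgals1 (0.09, adjusted p = 0.449) did not pass, and Serpina1b was lower in females (-0.86, adjusted p = 0.0236). Of the lists, the genes of processing and cross-linking had a median r of 0.320 over all their pairs with the 8 collagens, and the folding enzymes 0.283. Fibril and basement membrane partners had 0.179, genes of breakdown 0.109, receptors 0.076 and signalling genes 0.031. The other tested collagen genes had 0.095, with a mean r from -0.246 for Col4a6 to 0.358 for Col18a1. Fibroblast and preadipocyte markers had 0.136, with a mean r from -0.291 for Pdgfra to 0.481 for Thy1. Endothelial markers had 0.048, adipocyte markers -0.034 and blood cell markers -0.368, beside -0.0023 for all tested probes. All these values are descriptions over the same 48 arrays.

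In liver, 6 pairs of 4 genes could be correlated, and the median r was 0.261. Col6a2 was represented here by its second probe, which stayed near background. Its pairs had an r of 0.129 with Col4a2, 0.037 with Col5a1 and -0.108 with Col4a1. The median rests in part on these and cannot be compared with that in fat. No pair reached an r over 0.5, which 1.74% of all liver probe pairs did. Col4a1 and Col4a2 were again the highest pair (r = 0.497, rho 0.417, adjusted permutation p = 0.00156 and 0.0106), but within days their r ran from -0.465 to 0.815. Col5a1 had an r of 0.481 with Col4a2 and of 0.394 with Col4a1, and these passed too (adjusted permutation p = 0.00156 and 0.0108). Without the 2 farthest arrays the 3 values were 0.485, 0.503 and 0.333. Within days r ran from 0.0013 to 0.725 for Col5a1 with Col4a2 and from -0.447 to 0.618 for Col5a1 with Col4a1. On plain values, with nothing removed, these 2 pairs had an r of 0.087 and 0.277. Col5a1 was detected on 14 liver arrays and lay near background. The level in fat did not go with the level in liver of the same mouse. Over 48 mice r was 0.108 for Col5a1 (rho 0.089), -0.164 for Col4a1 (rho -0.196) and 0.042 for Col4a2 (rho -0.015), with adjusted permutation p of 0.543 or more over these 3 genes. Without the 2 mice farthest from the median in fat, r was 0.115, -0.268 and 0.072.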

How the data were processed

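Biotin-labelled cRNA was read on 96 Illumina bead arrays. The authors deposited probe intensity values with no background correction or normalization. The deposited detection p-value column rises with signal and holds 1 minus the p-value, per its values, and it was turned back. The deposited log2 matrix, for which the submitters' processing notes name lumi, served as an alternative. How it was normalized, and the lumi version, are not stated there.

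Signals were background-corrected and quantile-normalized with limma 3.58.1 (neqc, offset 16) in R 4.3.3, within a tissue for class and sex and over 96 arrays for tests between tissues. Probes with a detection p under 0.01 on at least 12 arrays were fitted with lmFit and eBayes (trend), with class, sex and scanning day as terms. Fat against liver had no day term, since each day held 1 tissue. Benjamini-Hochberg adjusted p under 0.05 over all tested probes were called. SDs by sex or class are of values freed of the other terms, and between tissues they are of all arrays. Correlations used 100000 permutations. For a gene with several tested probes, the one with the highest mean in the tissue stood for it. Up to 4 genes per list, by moderated statistic, and the 12 genes most like the collagens were named. Names came from the platform table and GRCm38.p6. The fit was run on simulated fat data with known sex and class shifts and independent noise per probe. That simulation held no day effects and no covariation between genes, so it does not bear on the liver values or the correlations. The members and lists were chosen with earlier results of these data known.

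Mouse numbers pair fat and liver arrays of one animal, per the labels. They entered as a random block in an alternative, and the consensus correlation was -0.026 for tissue and 0.030 for interactions. Numbers of arrays limit the precision.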

Additional observations from a re-analysis of the deposited data

Results flagged for a closer look

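The sex difference of each tested collagen probe differed between the tissues, by the interaction test of female minus male in fat less the same in liver. The values were 1.15 for Col1a1, 0.86 for Col4a2, 0.742 and 0.738 for the 2 Col6a1 probes, 0.66 for Col15a1, 0.62 for Col4a1, 0.58 for Col6a2, 0.47 for Col3a1, 0.46 for Col5a1 and 0.13 for the second Col6a2 probe, with adjusted p in limma from 3.43e-07 to 0.0249. Only Col4a2 was detected on all 48 liver arrays, followed by Col4a1 on 41. The remaining probes were detected on 0 to 27 liver arrays, so that for them the test sets a measured difference in fat against a liver signal near background.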

How the results depend on the processing

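Results were recomputed with the deposited log2 matrix, without background correction, with no or a stricter detection filter, without the 3 least correlated arrays of each tissue, with the number of detected probes as a term, without a day term and without each scanning day. The count of collagen probes differing by class in fat moved from 0 to 1 (Col15a1) with the detected-probe term and without day 3, and that with a tissue by class interaction moved from 0 to 1 without day 3. The count by sex in liver fell from 3 to 1 (Col4a2) with no filter, without the 3 arrays, with the detected-probe term, with no day term and without day 5 or 6, so it ran from 1 to 3 over left-out days. The median r in fat was 0.655 on plain values, 0.651 within day 4 and 0.312 within day 7, and that in liver turned to -0.025 within day 1. The causes were not tested. Of the single-gene values under an alternative, 433 kept direction and side of the threshold, 32 lost a call and 2 gained one. With the mouse as a replicate block, the paired analysis gave 9 probes for tissue, 0 for tissue by class and 10 for tissue by sex, and no call changed. Signals near background limit all liver values except those of Col4a2 and, in part, Col4a1. Within females, within males and without Col3a1 were chosen after seeing the data.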
